A study of Mus musculus with 8 samples.

Results

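The clustered protocadherin genes were described along the H3K56ac peaks of MuSCs, the muscle stem cells that repair injured fibres. The members were the genes of GENCODE vM21 whose symbols start with Pcdha, Pcdhb or Pcdhg followed by a number or a letter. This rule found 58 of the 55413 genes annotated on assembled chromosomes, with 14 in the Pcdha cluster, 22 in the Pcdhb cluster and 22 in the Pcdhg cluster, all on the plus strand of chromosome 18. The study profiled H3K56ac, a histone H3 acetylated at lysine 56, by ChIP-seq in freshly isolated MuSCs of the C57BL/6 background. Mice of the Control group, which the labels describe no further, are called wild type in parts of the paper and Sirt6 fl/fl without Cre in another. Those of the Sirt6mKO group carried a floxed Sirt6 gene (Pax7-ICNCre, Sirt6 fl/fl) deleted by a constitutive Cre recombinase under the Pax7 promoter, which removes the deacetylase SIRT6 in the skeletal muscle lineage. The labels give 2 H3K56ac libraries and 2 input libraries of each genotype and no age of the mice. The paper's legend for the figure with this ChIP-seq names male mice and gives their age in weeks. The peaks of these data were analysed here as 1 merged list that names no genotype, so H3K56ac in Control and Sirt6mKO MuSCs cannot be told apart in it, and there are no replicate values.

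Clustered protocadherins are cell adhesion molecules of the cadherin superfamily and are best known from neurons, where the set of isoforms on a cell gives it an adhesive identity. In the Pcdha and Pcdhg clusters each gene has its own promoter and a large variable exon, which encodes the extracellular part, the transmembrane part and a piece of the cytoplasmic part, and this exon is spliced to short constant exons that all genes of the cluster share. Pcdhb genes have no constant exons. In neurons most variable promoters are chosen stochastically and require CTCF and cohesin, whereas the C-type genes at the 3′ end of the Pcdha and Pcdhg clusters are used more uniformly.

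The list held 105600 peaks, of which 3424 were on chromosome 18, and no peak carried a measure of strength. The paper reports more H3K56ac peaks in Sirt6mKO MuSCs, and after loss of Sirt6 broader peaks than those of other histone marks. How far this shaped the number and widths of the merged peaks was not tested. In a bulk list, a mark present in few cells and a mark that is absent cannot be told apart when no peak is called. The sort was checked against marker genes. All 6 MuSC markers examined (Pax7, Myf5, Cd34, Vcam1, Itga7 and Calcr) had a peak within 1 kb of the start site of the principal transcript. None of the 3 genes whose products were used to remove other cells did (Ptprc, Pecam1 and Ly6a). However, the endothelial gene Pecam1 had a peak near another of its start sites, and peaks covered 27.5% of the gene. Pdgfra of fibroadipogenic cells and the glial gene Sox10 had a promoter peak, and 2 of 6 neuron markers had one (Syp and Tubb3, 9.68% to 70.0%). The part of such cells in the peaks described here was not tested. The intervals of the MuSC and the neuron markers both include 62.5%, so these few genes do not measure the purity of the sort.

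H3K56ac was found at 7 of the 58 variable exon promoters and left the other 51 without a peak. A promoter was counted as marked when a peak lay within 1 kb of the start site of the principal transcript. The share was 12.1% (Wilson 95% interval 5.97% to 22.9%, counting error only), beside 62.5% of 21938 protein-coding genes. The marked genes were Pcdhac1 and Pcdhac2 in the Pcdha cluster, Pcdhb2 and Pcdhb14 in the Pcdhb cluster, and Pcdhgc3, Pcdhgc4 and Pcdhgc5 in the Pcdhg cluster. All 5 C-type genes were therefore marked (56.6% to 100%), against 2 of the 53 other genes, or 3.77% (1.04% to 12.8%). These intervals count genes as independent, although Pcdhgc3 and Pcdhgc4 shared 1 peak and unmarked genes lay together in long stretches. The difference between the 2 groups was not tested. By cluster, 2 of 14 Pcdha genes (14.3%), 2 of 22 Pcdhb genes (9.09%) and 3 of 22 Pcdhg genes (13.6%) had a promoter peak. The count was again 7 with a window of 3 kb, beside 65.4% of protein-coding genes, and 6 when the start site itself had to lie in a peak, beside 57.9%. A peak overlapped the variable exon itself in the same 7 genes, beside 59.9% of protein-coding genes with a peak over the first exon.

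**Figure D1:**
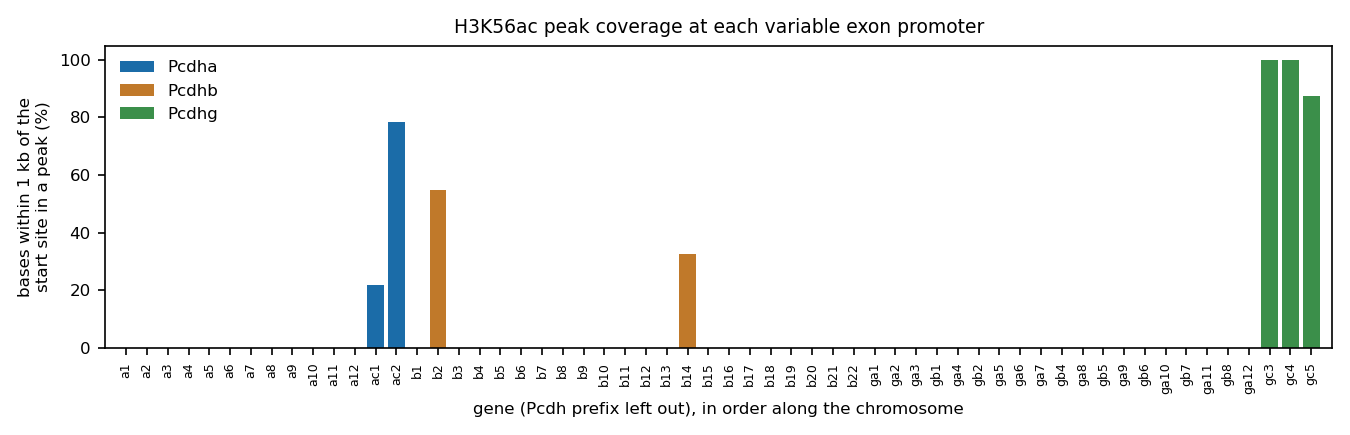
Share of the bases within 1 kb of the start site that lie in an H3K56ac peak (vertical axis, %), for each of the 58 genes in order along the chromosome (horizontal axis) and coloured by cluster. Only 7 bars rise above 0, from 21.6% at Pcdhac1 to 100% at Pcdhgc3 and Pcdhgc4, and the 5 C-type genes are all among them.

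In the Pcdha cluster the first 12 genes, from Pcdha1 (start site at 36930285) to Pcdha12 (start site at 37020149), had no peak. All coordinates are those of GRCm38, the same assembly as mm10, counted from 1. The 92.3 kb that hold their variable exons contained 0 peaks. The nearest peak lay 69.8 kb away for Pcdha12 and 143 kb away for Pcdha3, which were the extremes of this series. This series includes a gene model (ENSMUSG00000007440.10) that GENCODE calls Pcdha11, as it does the next gene, and that RefSeq calls Pcdha10.

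Marks appeared at the C-type genes of this cluster. Pcdhac1 (ENSMUSG00000103255.1) had a narrow peak of 432 bp at 37089992 to 37090423. It began 21 bp upstream of the start site at 37090013, ended 410 bp downstream and covered 16.1% of the variable exon. Pcdhac2 (ENSMUSG00000102697.1) had a peak of 2757 bp at 37142934 to 37145690, which reached from 569 bp upstream of the start site to 2187 bp downstream and covered 72.3% of the variable exon. The Pcdhac2 peak thus took in most of the exon and the Pcdhac1 peak only its beginning. The median width of the widest promoter peak of marked protein-coding genes was 3347.5 bp.

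In the Pcdhb cluster the marked genes did not stand at an end of the cluster and were separated by 11 unmarked genes, Pcdhb3 to Pcdhb13. Pcdhb2 (ENSMUSG00000051599.4) had a peak of 732 bp at 37294672 to 37295403 over its start site at 37294812, and a second peak of 681 bp at 37293497 to 37294177 that ended 635 bp upstream. Pcdhb14 (ENSMUSG00000044043.4) had a peak of 651 bp at 37447561 to 37448211 that extended from 95 bp upstream of the start site at 37447656 to 555 bp downstream. These 3 peaks were the only ones in the 259.5 kb of the cluster and covered 0.795% of it. All were under the median width of 974 bp over the whole list. Pcdhb1, at the 5′ end of the cluster, lay 28.6 kb from the nearest peak, and Pcdhb22, at the 3′ end, lay 69.7 kb from it.

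In the Pcdhg cluster the pattern was a long unmarked part followed by a densely marked 3′ end. The 19 genes of the A and B types, from Pcdhga1 (start site at 37661793) to Pcdhga12 (start site at 37765580), had no promoter peak, and the 107 kb with their variable exons held 0 peaks. Pcdhga1 had the nearest peak, at 4.71 kb, and Pcdhgb5 the farthest, at 72.2 kb. The C-type genes that follow lay in the widest peak of the locus, of 14990 bp at 37804364 to 37819353, and in the peak after it.

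Pcdhgc3 (ENSMUSG00000102918.1), with the start site at 37806410, and Pcdhgc4 (ENSMUSG00000023036.14), with the start site at 37815079, shared the peak of 14990 bp, which covered 100% of both variable exons. The peak began 2046 bp upstream of Pcdhgc3 and also held the start site of the antisense gene BC037039. Because the list gives no strength along a peak, marking at the separate promoters of Pcdhgc3 and Pcdhgc4 cannot be resolved within it. Of all 105600 peaks, 297 (0.281%) were at least as wide. Pcdhgc5 (ENSMUSG00000102543.5) differed in detail. Its start site at 37819513 lay in a gap of 248 bp between the wide peak and a peak of 6596 bp at 37819602 to 37826197 that began 89 bp downstream and covered 96.6% of the variable exon. This peak held another annotated start site of Pcdhgc5 and that of the noncoding gene Gm38182.

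**Figure D2:**
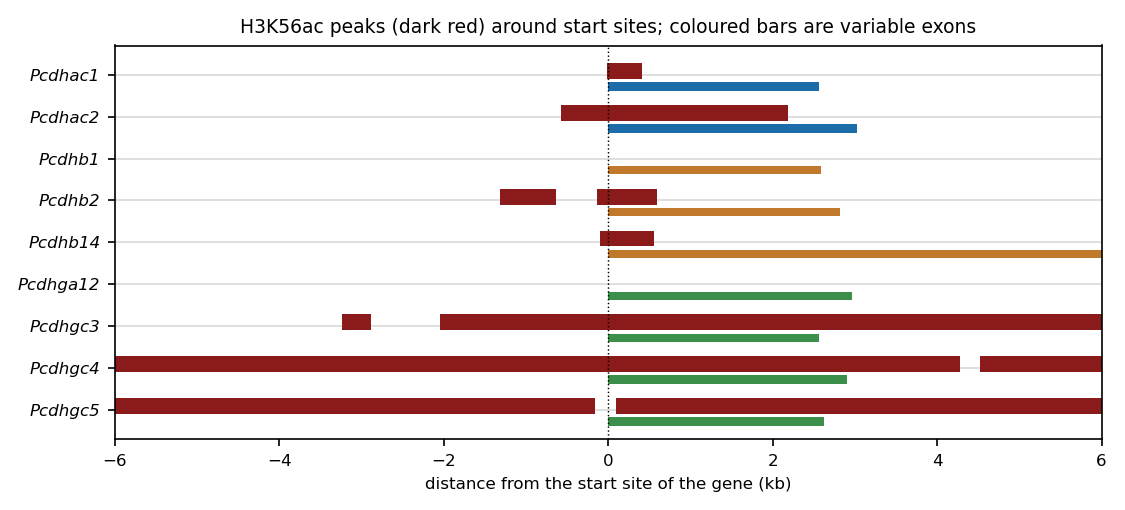
H3K56ac peaks (dark red bars) within 6 kb of the start site of the 7 marked genes and of the unmarked genes Pcdhb1 and Pcdhga12 (horizontal axis, distance from the start site in kb; coloured bars are variable exons, blue for Pcdha, orange for Pcdhb and green for Pcdhg). Peaks at Pcdhac1, Pcdhb2 and Pcdhb14 are under 1 kb wide, the Pcdhac2 peak is 2757 bp wide, and the Pcdhg C-type genes lie in wide peaks with a gap of 248 bp over the start site of Pcdhgc5.

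The constant exons of the clusters showed opposite patterns. None of the 3 constant exons of Pcdha, at 37156155 to 37156213, 37159265 to 37159353 and 37184946 to 37187657, overlapped a peak, and 0% of their 2860 bp was covered. All 3 constant exons of Pcdhg, at 37825021 to 37825079, 37833265 to 37833353 and 37839903 to 37841873, lay wholly in peaks, so that 100% of their 2119 bp was covered. Genome-wide, 9.74% of 185409 exons after the first of protein-coding genes overlapped a peak, and 8.25% of their bases were covered. Each Pcdhg constant exon lay in a different peak, of 6596, 4669 and 5608 bp. The peak over constant exon 1 was the one that also covered the variable exon of Pcdhgc5.

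Between the variable exon of Pcdhgc3 and the end of the last Pcdhg exon, 95.6% of 35.5 kb was covered by 6 peaks. This stretch held 66.4% of all covered bases of the locus. The series of close peaks ran on past the cluster. From 37803172 to 37853112, a span of 49.9 kb, 10 peaks covered 94.8% of the sequence, and 7 of the 9 gaps between them were under 300 bp, with extremes of 8 and 1140 bp. It began 3.24 kb upstream of Pcdhgc3 and ended 9.51 kb inside the 3′ part of Diaph1, a formin gene that lies on the opposite strand. Before it lay 146 kb without a peak and after it 18.1 kb. With peaks less than 1 kb apart joined over the genome, the series broke at the gap of 1140 bp, its first region was 25.1 kb long, and 553 of 58591 regions (0.944%) were at least as long. With a joining distance of 2 kb, chosen after the peaks were seen, it stayed whole, and 188 of 49456 regions (0.38%) were at least as long.

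**Figure D3:**
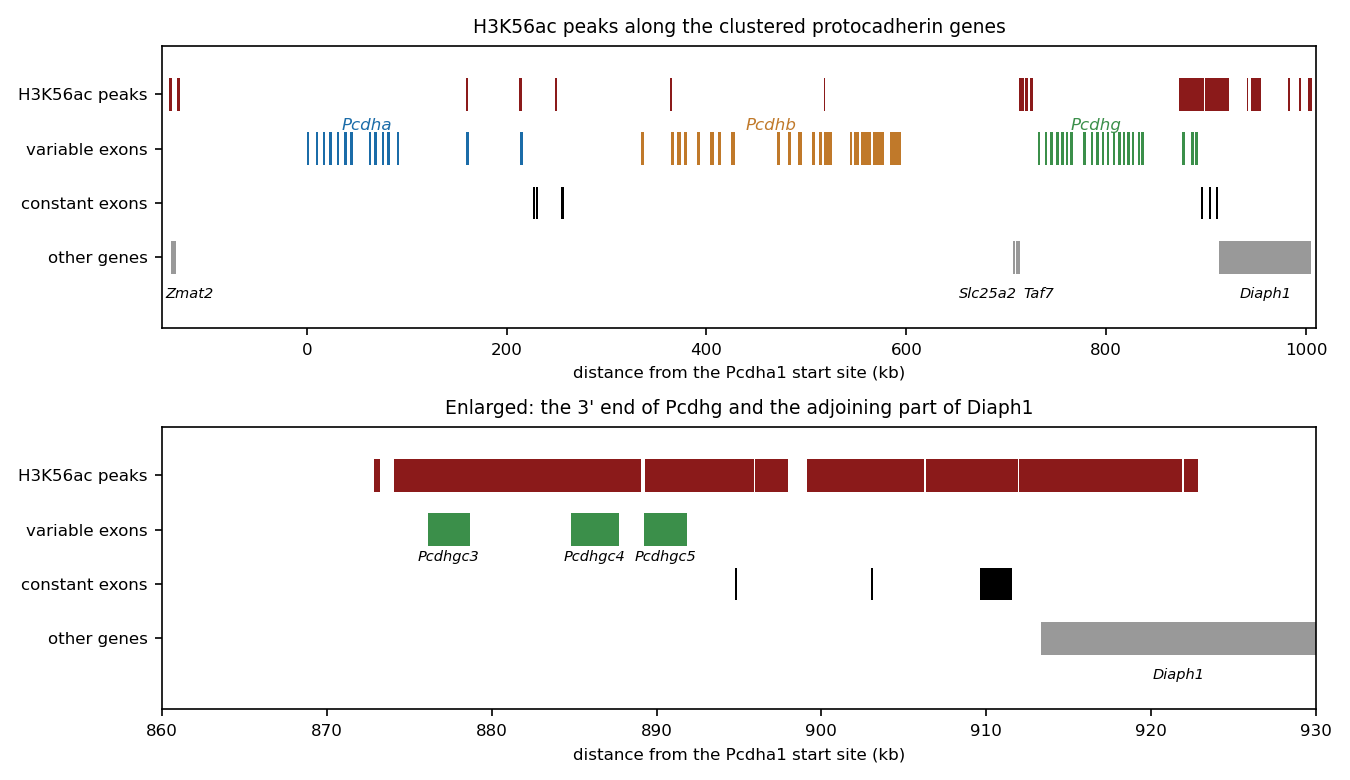
H3K56ac peaks (dark red), variable exons (coloured by cluster), constant exons (black) and the genes Zmat2, Slc25a2, Taf7 and Diaph1 (grey) against the distance from the start site of Pcdha1 in kb, with the 3′ end of Pcdhg enlarged in the lower panel. Narrow bars are drawn at a minimum width so that they can be seen. Peaks are sparse over the variable exons of all 3 clusters and nearly continuous over Pcdhgc3, Pcdhgc4, Pcdhgc5 and the Pcdhg constant exons.

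Of the 18 peaks in the 912 kb from the Pcdha1 start site to the last Pcdhg exon, 7 lay at a variable exon or within 1 kb of its start site, counting the peak that also covered a constant exon, 2 lay over a constant exon only and 9 over neither. Of these 9, 3 belonged to the series at the 3′ end of Pcdhg, namely a peak of 357 bp upstream of Pcdhgc3 and peaks of 2040 and 2396 bp between constant exons 1 and 2, the last of which held the start site of the antisense gene Gm29994. The Pcdha cluster held 1 peak outside its exons, of 754 bp at 37179017 to 37179770. It lay in the intron between constant exons 2 and 3, 5176 bp from constant exon 3, and 495 bp from the start site of the noncoding gene Gm10544. An enhancer of the Pcdha promoters called HS7 is known from this intron, but its coordinates were not used here and the peak was not assigned to it. The intergenic 77.3 kb between Pcdha and Pcdhb1, where the Pcdha enhancer HS5-1 is known to lie, held 0 peaks. Coordinates of HS5-1 and of the known enhancers of the other clusters were not used either, and no peak was assigned to them.

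The interval between Pcdhb22 and Pcdhga1 held 5 peaks, which stood together at its 3′ end. They covered 42.8% of the 17.6 kb between Taf7, a gene for a subunit of the general transcription factor TFIID, and Pcdhga1. The widest, of 4844 bp at 37642998 to 37647841, covered the start site of Taf7. Peaks of 331, 856 and 957 bp followed, and a peak of 1753 bp at 37655336 to 37657088 covered the start site of the lincRNA 3222401L13Rik. The 113 kb from Pcdhb22 to Slc25a2, a mitochondrial ornithine carrier gene, held 0 peaks. Slc25a2 itself had no promoter peak, and the nearest lay 4253 bp from its start site.

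Long stretches without a peak held all the unmarked promoters. In 7 stretches of at least 20 kb that touched the locus there were 979 kb without a peak and the start sites of 51 members. The longest, of 286 kb at 36803599 to 37089991, held the 12 start sites from Pcdha1 to Pcdha12, and 1.13% of the 105579 gaps between neighbouring peaks genome-wide were as long or longer. Stretches of 152 kb and 195 kb held Pcdhb3 to Pcdhb13 and Pcdhb15 to Pcdhb22, one of 146 kb held Pcdhga1 to Pcdhga12, and one of 114 kb held Pcdhb1 alone. Of the 51 unmarked start sites, 44 lay more than 20 kb from a peak, with a median distance of 48.8 kb. The median gap in the whole list was 1539 bp.

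As a whole the locus lay between the quartiles of genome windows in coverage and in number of peaks. It was covered to 5.60%, and the median of 2979 genome windows of the same length was 3.88%, with quartiles of 0.313% and 11%. It held 19.7 peaks per Mb, beside a median of 26.3 in the windows, with quartiles of 2.19 and 64.7. The windows included unassembled bases (N), where no peak can be called, whereas the locus holds 0 such bases. The clusters shared the peaks of the locus unequally. Pcdha and Pcdhb held 11.7 and 11.6 peaks per Mb and were covered to 1.53% and 0.795%, while Pcdhg held 38.9 peaks per Mb and was covered to 20.2%. The order in number of peaks depended on how close peaks were counted. With peaks less than 1 kb apart joined, Pcdhg held 11.1 per Mb, below the 11.7 of Pcdha and above the 7.71 of Pcdhb, whereas its covered share was 20.9%.

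The promoters of the members were then compared in base composition, which the choice of genes did not use. In the 300 bp from 250 bp upstream to 50 bp downstream of the start site, the unmarked members had a median GC content of 39.7% and a median CpG ratio (observed over expected) of 0.521. The 7 marked members had medians of 52.3% and 0.594, and all protein-coding genes of 56% and 0.557. The highest GC contents were those of 4 C-type genes, with 63% at Pcdhgc3, 60.7% at Pcdhac1, 54.7% at Pcdhgc5 and 52.3% at Pcdhac2, while the C-type gene Pcdhgc4 had 47.3%. Pcdhb2 and Pcdhb14, with 39.7% and 42.3%, fell within the range of the unmarked genes, which was 30.7% to 50.3%.

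**Figure D4:**
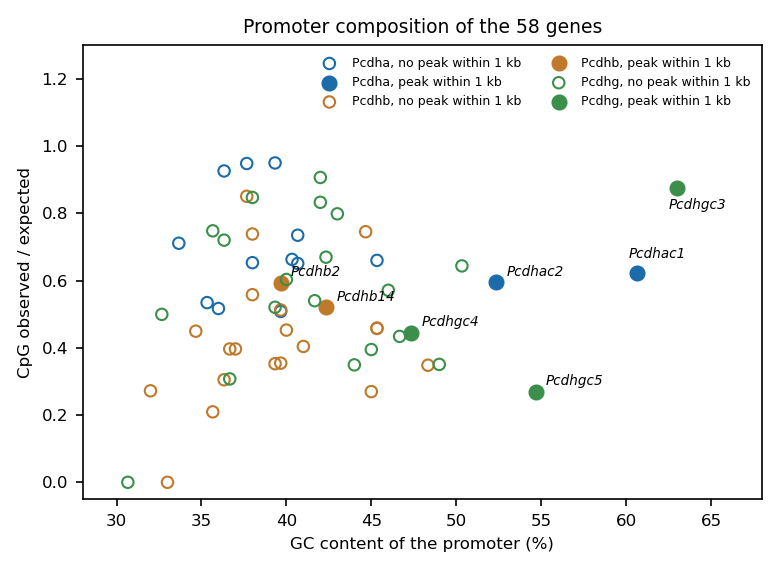
GC content (horizontal axis, %) and CpG ratio (vertical axis, observed over expected) of the 300 bp promoter of each of the 58 genes, coloured by cluster, with filled circles for the 7 genes with a peak within 1 kb and open circles for the 51 without. The 4 promoters above 52% GC are all marked, whereas many open circles reach CpG ratios as high as those of the filled ones.

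CpG ratio alone did not separate marked from unmarked members. Of the 23 members with a CpG ratio of at least 0.6, 2 were marked (Pcdhac1 and Pcdhgc3), or 8.70%, beside 93.1% of 10288 protein-coding genes with such a ratio. Most members with a high ratio had a low GC content. Of the 20 members with a ratio of at least 0.6 and a GC content below 50%, 0 were marked, beside 80.5% of 627 protein-coding genes. With such a ratio and a GC content of at least 50% there were 3 members, of which Pcdhgb8 was unmarked, beside 93.9% marked among protein-coding genes. Below a ratio of 0.6, 3 of 33 members with a GC content under 50% were marked (Pcdhb2, Pcdhb14 and Pcdhgc4), or 9.09%, beside 18.9%, and 2 of 2 members with a higher GC content (Pcdhac2 and Pcdhgc5), beside 54.2%. By GC content alone, 3 of the 53 members under 50% were marked, or 5.66%, beside 24.6%. These limits were chosen after the values had been seen. The unmarked Pcdha6 and Pcdha8 had ratios of 0.95 each, above that of any marked member. The word CGCT, the core of a conserved element of clustered protocadherin promoters, was present on either strand in 56 of the 58 promoters and in 68.5% of all protein-coding promoters of the same length. Pcdhb22 and Pcdhga12 were without it in this window.

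Since the study kept reads with a single alignment and the variable exons are paralogous, the unique part of their sequence was measured. A word of 50 bases was called unique when it occurred once on either strand of the assembled chromosomes. The bases within 1 kb of the start site began unique words to 100% at each marked member and to a median of 96.1% at the unmarked members, with the lowest value of 80.1% at Pcdha7. In the variable exons the median was 94.4% over the unmarked members, with 73.95% at Pcdha6 and 76.9% at Pcdha7 as the only values under 80%. With words of 100 bases all variable exons reached at least 87.6%. Unmarked promoters therefore consisted mostly of unique sequence under exact matching, and near matches were not counted.

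Finally, promoter peaks of related genes are given beside those of the members. The 12 nonclustered protocadherin genes lie outside the 3 clusters, although Pcdh1 and Pcdh12 are also on chromosome 18. Of the 12, 8 had a promoter peak (66.7%, 39.1% to 86.2%). This was near the 62.5% of all protein-coding genes. Their widths ran from 552 bp at Pcdh19 and 771 bp at Pcdh15 to 6200 bp at Pcdh18 and 7365 bp at Pcdh7, with 4252 bp at Pcdh10. Pcdh8, Pcdh11x, Pcdh12 and Pcdh20 had no promoter peak, but Pcdh11x and Pcdh12 had a peak within 3 kb of another annotated start site. By that wider rule, with any start site, 10 of the 12 had a peak, beside 14872 of 21938 protein-coding genes and 7 of the 58 members. Of the 9 Ugt1a genes, which also join separate first exons to shared exons, 1 had a promoter peak (11.1%, 1.99% to 43.5%). Among tandem arrays, 6 of 1135 olfactory receptor genes (0.529%) and 1 of 331 vomeronasal receptor genes (0.302%) had one. Of the 7 neighbours of the clusters, 6 had a promoter peak, from Hars, Hars2 and Zmat2 on the 5′ side to Taf7, Diaph1 and Hdac3.

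All 19 genes for factors that shape or silence the clusters had a promoter peak (83.2% to 100%), beside 62.5% of all protein-coding genes. They include Ctcf, with a peak of 5894 bp, the cohesin gene Rad21 with 6195 bp, the cohesin loader gene Nipbl with 9706 bp, the silencer gene Smchd1 with 4736 bp and the histone methyltransferase gene Setdb1 with 728 bp. All 7 signalling partners, such as the kinase genes Ptk2 and Ptk2b, had one too. Among protein-coding genes with a CpG ratio of at least 0.6, 93.1% had a promoter peak, and neither list was compared at a like ratio. No test of these differences was run, because genes are not replicates and the members were chosen with results of these data known.

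**Figure D5:**
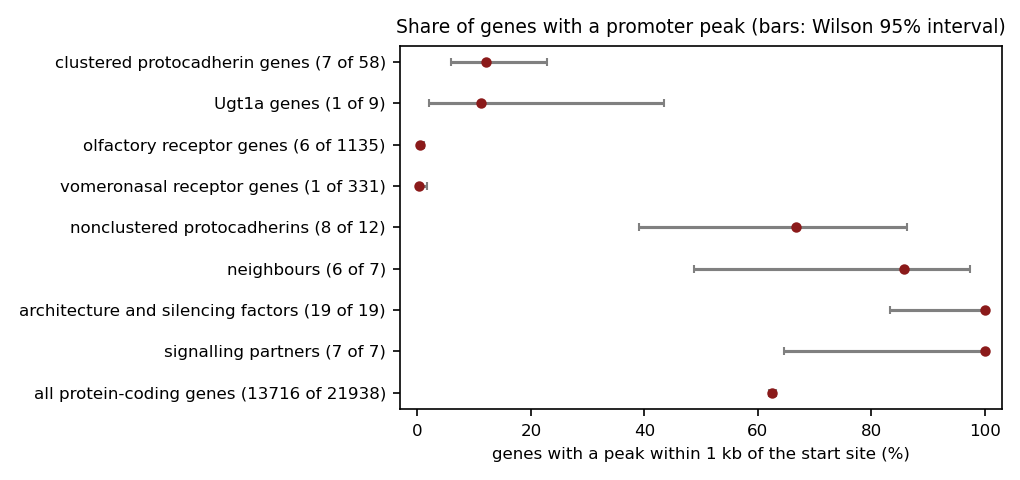
Share of genes with an H3K56ac peak within 1 kb of the principal start site (horizontal axis, %), with Wilson 95% intervals as bars and numbers of genes in parentheses. The interval of the clustered protocadherin genes, at 12.1%, lies below the share of all protein-coding genes, at 62.5%, and overlaps that of the Ugt1a genes, at 11.1%. All intervals count genes as independent, which neighbouring genes are not.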

How the data were processed

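FACS-sorted MuSCs were analysed by ChIP-seq on an Ion Torrent instrument. The authors trimmed reads with Trim Galore, aligned them to mm10 with bowtie keeping single alignments, removed duplicates with Picard, called peaks with MACS2, removed blacklisted regions and merged overlapping peaks with GenomicRanges. In the deposited intervals every score was 0, so only positions were used. Merging widens and fuses peaks. Depth per library is not in the list, though the paper reports it, and which libraries entered the merge is not stated.

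Intervals were compared with GENCODE vM21 on GRCm38 (overlap of at least 1 bp). The principal transcript was the APPRIS principal one, else the longest coding one. Constant exons were those shared by at least 5 genes of a cluster. The planned comparison of Sirt6mKO with Control needed values per sample and was not run. Promoter words and composition came from the assembly. Functions were tested on simulated data. Python 3.11.15, numpy 2.4.6 and scipy 1.17.1 were used. The rule was to name every member with a peak within 1 kb, the C-type genes, the ends of each cluster, intergenic peaks and lists of related, neighbouring and marker genes. Members and lists were chosen with earlier results of these data known. Some marker genes of other muscle cells are not reported here.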

Additional observations from a re-analysis of the deposited data

How the results depend on the processing

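Of 48 alternative values, 40 stayed within the interval or range of the main value and 8 moved. This tally is not a measure of stability, because the intervals of small counts were wide, such as 4.01% to 39.9% for the Pcdha share. Among the values that stayed, peaks per Mb of Pcdha fell from 11.7 to 7.77 with intervals of at least 500 bp. Those of Pcdhg rose from 38.9 to 55.0 with 10 kb added on either side. A covered share of Pcdhg of 19.97%, beside 20.2%, counted as moved. The share of marked promoters moved under none of its 6 alternatives, overall or by cluster, beyond its interval. It was 10.3% at the lowest over all members, and that of Pcdha was 7.14% (1 of 14) with intervals of at least 500 bp. The covered share of Pcdha was 1.36% under the same minimum, which drops the Pcdhac1 peak, and 1.42% with 10 kb added on either side. That of Pcdhb was 0.986% with intervals less than 1 kb apart joined and 0.738% with 10 kb added, and that of Pcdhg 19.97%, 20.9% and 24.5% under the 3 alternatives in the same order. Joining intervals lowered the peaks of Pcdhg from 38.9 to 11.1 per Mb, by construction, which turned its order against Pcdha, at 11.7 per Mb in both settings. The genome windows were not recomputed with joined intervals. No paired analysis was possible because no column holds a value of 1 library. For the same reason the comparison of Sirt6mKO with Control and its alternatives, leaving out replicates included, were not run.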

Other observations

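Diaph1, the gene next to the Pcdhg constant exons, overlapped 10 peaks that covered 26.1% of its 91.9 kb. Another annotated start site of Diaph1 lay 295 bp from the last peak of the series that enters the gene from Pcdhg. The promoter peak of its principal transcript, of 3809 bp at 37932354 to 37936162, lay at the far end from the cluster. Of the peaks between this promoter and the series that enters Diaph1 from Pcdhg, the widest were one of 5487 bp at 37874807 to 37880293 and one of 3007 bp at 37882088 to 37885094. On the other side of the locus the last peak before Pcdha1, of 2991 bp at 36800608 to 36803598, covered the start site of the vault RNA gene Vaultrc5.

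Variable exons of the members were long, with a median of 2611 bp, and their GC content ranged from 39.1% to 57.0%, beside 30.7% to 63% in the promoters. The median GC content was 54.8% over the 7 marked and 51.6% over the 51 unmarked members, and the CpG ratio was 0.439 and 0.466.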
